A study of Mus musculus with 86 samples.

Results

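The CXC chemokine genes Cxcl1, Cxcl2, Cxcl9, Cxcl10, Cxcl12, Cxcl13, Cxcl14 and Cxcl16 were followed through 5 expression tables from mouse models of kidney, liver and lung fibrosis. They were taken by gene name and Ensembl ID, with no measured value in the rule, and are 8 of the 31054 genes of the count tables and 8 of the 38277 genes of the tables of FPKM, the number of fragments scaled to gene length and library size. The series holds 86 RNA-seq samples and asks what loss or inhibition of MERTK, a receptor tyrosine kinase of phagocytes that binds apoptotic cells through bridging ligands, does to fibrotic organs. In the knockout experiment, mice labelled wild type (WT) or Mertk knockout (KO) had sham surgery or unilateral ureteral obstruction (UUO, tying off of 1 ureter) and gave kidney, or had sham surgery or bile duct ligation (BDL, tying off of the common bile duct) and gave liver. Each of these 8 groups had 4 libraries, and the kidney libraries sham WT 1 and UUO WT 1 were left out by the rule, which leaves 30. In the inhibitor experiment, mice labelled wild type were injected with UNC569, a small-molecule inhibitor of MERTK, or with its vehicle dimethyl sulfoxide (DMSO). Their kidneys came after sham (3 DMSO, 3 UNC569) or UUO (4 and 7), their livers after sham (3 and 3) or BDL (6 and 4), and their lungs after sham (3 and 3) or bleomycin (6 and 6), which makes 51 libraries. The UUO UNC569 group has 7 columns for 8 labelled samples and the BDL UNC569 group 4 columns for 6. The labels give no strain, age, dose, injection schedule, time after surgery or kind of knockout allele, and name no animal, so the p-values below measure the spread between libraries only.

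Chemokines are small secreted proteins that bind G protein-coupled receptors on leukocytes and draw those cells along a gradient. Cxcl1 and Cxcl2 carry the ELR amino acid motif before their paired cysteines, bind Cxcr2 and recruit neutrophils, and their transcription is driven by NF-kappa B after cytokine or danger signals. Cxcl9 and Cxcl10 are induced by interferons and bind Cxcr3 on activated T and NK cells. Cxcl16 is made as a membrane-bound protein whose extracellular part binds Cxcr6 and can be shed by the protease Adam10. Cxcl12 is made constitutively by stromal and endothelial cells and binds Cxcr4 and the scavenger Ackr3. Cxcl14 is a homeostatic chemokine of epithelia and stroma, and Cxcl13 binds Cxcr5 and organises B cell follicles. In obstructed kidney and cholestatic liver, injured epithelium and infiltrating myeloid cells are the textbook sources of the inflammatory members.

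Both neutrophil ligands and both interferon-induced members lie on chromosome 5 (GRCm38, GENCODE M21). Cxcl1 spans 90891241 to 90893115 and Cxcl2 spans 90903871 to 90905938, both on the plus strand, and Cxcl9 (92321347 to 92328079) and Cxcl10 (92346638 to 92348889) are on the minus strand. Cxcl13 is also on chromosome 5 (95956951 to 95961068, plus), while Cxcl12 is on chromosome 6 (117168535 to 117181367, plus), Cxcl14 on chromosome 13 (56288643 to 56296551, minus) and Cxcl16 on chromosome 11 (70453983 to 70459984, minus). RefSeq promoter windows (GRCm38.p6, the 250 bases before the annotated start, read 5′ to 3′ on the gene's strand) were found for 7 of the 8 genes. The windows of the neighbours Cxcl1 and Cxcl2 and of the neighbours Cxcl9 and Cxcl10 are shown because these pairs rose together in obstructed kidney. Capitals mark matches to a kappa B-like motif (GGNNNTTCC) or an interferon response element core (GAAANNGAA), each searched on both strands. They come from chr5:90890995-90891244 (Cxcl1), chr5:90903649-90903898 (Cxcl2), chr5:92328080-92328329 (Cxcl9) and chr5:92348890-92349139 (Cxcl10).
Cxcl1: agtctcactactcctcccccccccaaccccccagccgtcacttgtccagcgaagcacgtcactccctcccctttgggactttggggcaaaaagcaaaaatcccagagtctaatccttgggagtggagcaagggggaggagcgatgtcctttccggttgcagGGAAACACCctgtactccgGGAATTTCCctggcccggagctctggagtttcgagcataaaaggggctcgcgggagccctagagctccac
Cxcl2: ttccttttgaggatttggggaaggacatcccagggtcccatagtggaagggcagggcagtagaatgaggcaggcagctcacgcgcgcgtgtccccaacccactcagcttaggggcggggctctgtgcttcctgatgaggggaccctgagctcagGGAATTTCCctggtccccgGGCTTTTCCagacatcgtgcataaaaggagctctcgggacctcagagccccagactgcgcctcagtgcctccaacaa
Cxcl9: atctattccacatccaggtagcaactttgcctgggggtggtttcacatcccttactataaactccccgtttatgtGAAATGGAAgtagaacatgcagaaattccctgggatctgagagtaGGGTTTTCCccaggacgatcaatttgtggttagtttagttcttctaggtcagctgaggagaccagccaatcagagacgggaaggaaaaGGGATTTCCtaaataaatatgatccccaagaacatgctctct
Cxcl10: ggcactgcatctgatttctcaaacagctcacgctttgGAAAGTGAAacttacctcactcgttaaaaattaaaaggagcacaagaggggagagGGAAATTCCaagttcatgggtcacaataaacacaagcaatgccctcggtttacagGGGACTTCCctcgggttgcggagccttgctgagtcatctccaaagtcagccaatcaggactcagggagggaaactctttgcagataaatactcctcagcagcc
The sequence GGAATTTCC stands in both Cxcl1, 70 to 62 bases before the start, and Cxcl2, 96 to 88 bases before it. Cxcl9 and Cxcl10 each hold 2 kappa B-like matches and 1 interferon response element core, GAAATGGAA in Cxcl9 and GAAAGTGAA in Cxcl10. A gamma-activated sequence (TTCNNNGAA) was not in these 4 windows. Cxcl14 held GAAACAGAA and TTCTGAGAA and no kappa B-like match, and the windows of Cxcl12 and Cxcl13 held none of the 3 motifs. Among 32851 mouse promoter windows of the same length, 15.7% held the kappa B-like letters, 7.13% the interferon response element core and 7.02% the gamma-activated sequence. No match overlapped a match of another motif, and a match describes letters only.

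Libraries of the knockout experiment had 7216322 to 28451863 reads in genes in kidney and 14500094 to 23352846 in liver, while the depth behind the FPKM tables is not given. The whole-gene Mertk level did not separate the labels in kidney: sham held 52.6 to 79.6 CPM (counts per library size, scaled by the trimmed mean of M values) in WT and 59.6 to 83.5 in KO, and UUO held 51.1 to 65 and 44.5 to 63. In ligated liver every library labelled KO (6.95 to 18.8 CPM) was below every WT library (21.3 to 28.4), and in sham liver the ranges overlapped (10.8 to 20.5 against 10.5 to 18.1). Reads of a whole gene do not check a deletion, so the groups are called by their labels. The submitters noted bad read files on 9 of the libraries of this experiment, and kidney sham WT 3 had 58.5% unmapped reads. The left-out kidney libraries stood apart, since summed kidney tubule markers were 29.1 CPM in sham WT 1 and 35.9 in UUO WT 1 against at least 12200 in the sham and 876 in the UUO libraries kept. In lung, summed cardiac muscle markers were 2220 to 2250 FPKM in 2 of 3 sham DMSO libraries and 2490 in 1 sham UNC569 library, against 36 to 970 in the bleomycin libraries. Reads of the knockout experiment were counted without strand. Antisense Zmynd15 shares 18.3% of the exon bases of Cxcl16, and antisense Art3 5.91% of those of Cxcl10. Reads within those shared bases cannot be assigned to 1 gene by strand, and how the FPKM treated them is not given.

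Before injury the family was led by Cxcl12 in kidney and liver and by Cxcl14 in lung. In sham DMSO kidney the mean FPKM were 80.2 for Cxcl12, 37.6 for Cxcl14 and 31 for Cxcl16, then 5.27 for Cxcl10, 3.15 for Cxcl1, 0.867 for Cxcl9 and 0.206 for Cxcl13, and Cxcl2 was listed at 0. The ranges of Cxcl14 and Cxcl16 overlapped, as did those of neighbours from Cxcl10 downward, so only Cxcl12 and the drop after Cxcl16 stood clear. Sham DMSO liver had a mean of 248 FPKM of Cxcl12 and 11.2 or less of every other member, in overlapping order down to Cxcl14 at 1.31, with Cxcl2 listed at 0. Sham DMSO lung had 163 FPKM of Cxcl14, 81.3 of Cxcl12, 38.2 of Cxcl16, 2.56 of Cxcl10 and 1.47 of Cxcl13, each clear of the next, and Cxcl9, Cxcl1 and Cxcl2 lay at 0.295 or less. The tables were normalised separately, so these levels stand side by side and were not tested between organs.

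Injury raised most of the family in kidney, fewer members in liver and none past the test in lung. For every table, 5 contrasts were fitted over all genes, and a gene was called at an adjusted p under 0.05. Obstructed WT kidney had 6 of the 8 members higher and 0 lower, where 23.3% of all genes were higher and 16% lower, and the KO-labelled kidney had 7 of 8 higher, where 34.7% were higher and 24.4% lower. The median member changed by 3.08 (WT) and 2.87 (KO) on the log2 scale beside 0.16 and 0.23 over all genes tested. In the inhibitor kidneys 6 of 7 tested members were higher with DMSO (29.7% of genes higher, 25.8% lower) and 6 of 7 with UNC569 (27.5% and 34.5%), with member medians of 2.27 and 2.47 beside 0.08 and -0.07. Median-of-ratios scaling moved the median of all genes by 0.13 in the UNC569 kidney comparison and by 0.12 in the DMSO liver comparison.

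Liver gave a narrower response. Ligated WT liver had 4 members higher (Cxcl1, Cxcl2, Cxcl14, Cxcl16) and Cxcl12 lower, where 16.3% of genes were higher and 12.8% lower. KO-labelled liver had Cxcl1, Cxcl2 and Cxcl14 higher and Cxcl12 lower, where 14% and 11.2% were called, and without BDL KO 1 the count of 4 became 7, with Cxcl10, Cxcl13 and Cxcl16 added. DMSO liver had Cxcl2, Cxcl14 and Cxcl16 higher and Cxcl12 lower, where 5.47% and 7.92% of genes were called (710 and 1028, or 948 and 779 with median-of-ratios scaling). This count of 4 fell to 1 without sham DMSO 2 and to 2 without sham DMSO 3. UNC569 liver had no member called, where 3.66% of genes were higher and 4.9% lower. That count of 0, by limma, stood beside 4 members and 2978 of 12986 genes with an unadjusted p under 0.05. The count rose to 2 without BDL UNC569 3, which called Cxcl9 and Cxcl12 lower, and to 1 without BDL DMSO 3 or 5, which called Cxcl14 higher. The medians of the members were 1.82, 2.11, 1.17 and 0.24 in these 4 comparisons, beside 0.03, 0.07, -0.1 and -0.01 over all genes.

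Lung had no member called after bleomycin. With DMSO 0.0251% of genes were higher and 0.0439% lower by limma. An unadjusted p under 0.05 was found for 5 of 7 tested members and for 3122 of the 15935 genes tested. With UNC569 0.0188% were higher and 0.00628% lower, and 0 members and 1687 genes in all had an unadjusted p under 0.05. The member medians were 0.92 and 0.06 beside -0.02 and -0.05 over all genes. The difference between these responses was tested, and no gene in the table passed, as given under the inhibitor comparisons.

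**Figure D1:**
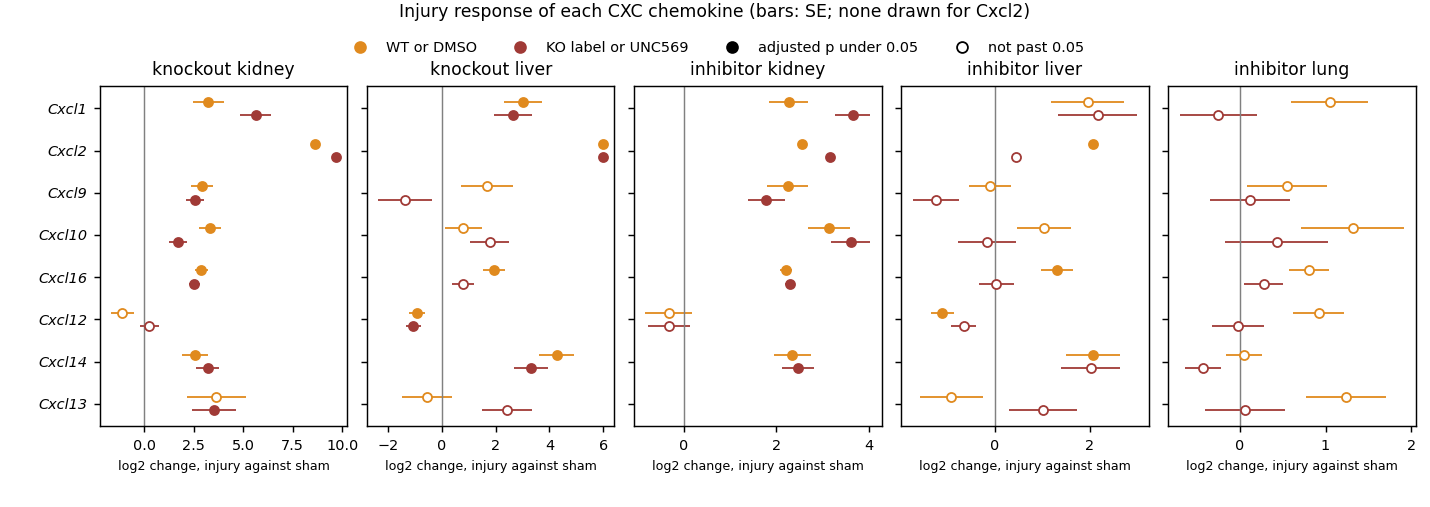
Injury against sham in each of the 5 tables, as log2 change on the horizontal axis for each member, with the WT or DMSO arm in orange and the KO-labelled or UNC569 arm in red. Filled points passed an adjusted p of 0.05, and bars are standard errors, approximate in the knockout panels because they were derived from the edgeR F statistic. Cxcl2 has no bar because its sham level was at or near 0. Points lie to the right of 0 for 6 to 8 members in the kidney panels, and Cxcl12 lies left of 0 in both liver panels.

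Cxcl1, the neutrophil chemokine, had a scattered sham level in kidney and a higher obstructed one. Its CPM were 7.84, 17.2 and 0.659 in sham WT 2 to 4 and 87.1, 94 and 52.9 in UUO WT 2 to 4. Sham KO gave 1.34, 0.357, 1.11 and 2.27 and UUO KO gave 34.5, 59.3, 47.2 and 115. Sham and obstructed libraries did not overlap in either arm, and the highest sham value, 17.2, lay in WT 3. The log2 change was 3.24 ± 0.78 (SE, adjusted p = 0.00471) in WT and 5.63 ± 0.77 (SE, adjusted p = 3.19e-05) in KO. For all edgeR values the SE is approximate: it is the absolute log2 change divided by the square root of the F statistic, not a fitted standard error. The difference between these responses, 2.39 ± 1.01 (SE, adjusted p = 0.148), did not pass by edgeR, and without sham WT 4 it was 2.85 (adjusted p = 0.0125).

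Cxcl2, its close relative, went from almost no reads to a steady signal. Sham kidney held 0, 0 and 0.165 CPM in WT and 0, 0, 0 and 0.0839 in KO, that is 2 reads in all in each arm. UUO held 34.1, 24.3 and 25.1 in WT and 13.4, 31.1, 13.2 and 58.4 in KO. Every obstructed library lay above every sham library. The pooled counts went from 2 to 1645 reads in WT, a ratio per depth of 431 (95% counting interval 119 to 3560), and from 2 to 2799 in KO, a ratio of 1110 (308 to 9210). These intervals cover counting error only. The edgeR adjusted p was 1.56e-05 in WT and 8.72e-07 in KO. Summed neutrophil markers went from 2.4 to 3.7 CPM in sham WT to 17.8 to 36.2 in UUO WT and from 1.38 to 7.23 to 23.9 to 92.1 in KO, and their part in Cxcl1 and Cxcl2 was not tested.

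The inhibitor kidneys gave the same pair in FPKM. Cxcl1 was 6.05, 0.195 and 3.2 in sham DMSO and 15.8, 10.7, 20.6 and 13.7 in UUO DMSO, a change of 2.27 ± 0.42 (SE, adjusted p = 0.000185) on the log2(FPKM + 1) scale, which understates the change of low genes. It was 1.32, 0.476 and 0.489 in sham UNC569 and ranged from 16.2 to 32.5 with a median of 18.6 in UUO UNC569, a change of 3.65 ± 0.38 (SE, adjusted p = 2.11e-07). No obstructed library reached down to a sham value. Cxcl2 was listed at 0 in all 6 sham kidneys, was 4.37, 3.04, 6.52 and 6.52 in UUO DMSO and ranged from 5.86 to 10.3 with a median of 7.79 in UUO UNC569. Both rises of Cxcl2 passed by limma (adjusted p = 6.08e-08 and 9.51e-10).

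In liver both genes rose with ligation in the knockout experiment, from a higher floor for Cxcl1. Cxcl1 CPM were 5, 27.4, 4.95 and 6.65 in sham WT and 56.8, 72, 20.4 and 208 in BDL WT, a change of 3.02 ± 0.7 (SE, adjusted p = 0.00507). Sham WT 2 overlapped the ligated libraries through its 27.4. KO-labelled libraries went from 9.43, 10.2, 12.8 and 8.82 to 32.3, 104, 94.8 and 28.4, a change of 2.65 ± 0.69 (SE, adjusted p = 0.0127), with no overlap. Cxcl1 in WT lost its call when the libraries with noted bad files were left out (2.44, adjusted p = 0.0634), which kept only sham WT 1 and 2 of the sham WT livers. Cxcl2 held 0, 0.128, 0 and 0 CPM in sham WT and a tight 2.59, 2.9, 2.27 and 2.39 in BDL WT (adjusted p = 0.00262). The pooled reads went from 2 to 186, a ratio of 78.6 (95% counting interval 21.5 to 654). In KO-labelled liver Cxcl2 went from 0.0655, 0.121, 0 and 0.063 to 0.431, 1.84, 14.9 and 0.857 (adjusted p = 0.00237). The 14.9 of BDL KO 3 stood above the other 3, and that library also had a neutrophil marker sum of 140 CPM against 11 to 20.1 in the other BDL KO libraries. The part of those cells in the value was not tested.

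The DMSO livers repeated the rise for Cxcl2 and not, past the test, for Cxcl1. Cxcl2 was listed at 0 in the 6 sham livers and ranged from 0.267 to 11.2 with a median of 3.86 in BDL DMSO (adjusted p = 0.0198). Without any 1 of the sham DMSO libraries that adjusted p was 0.0535 to 0.0723. In BDL UNC569 it was 0.639, 0, 0.629 and 0.318, all under 1 FPKM, and did not differ from sham past the threshold (adjusted p = 0.708). Cxcl1 was 26.6, 6.31 and 0.827 in sham DMSO and ranged from 11.5 to 75.8 with a median of 27.2 in BDL DMSO, a change of 1.96 ± 0.77 (SE, adjusted p = 0.102). Without sham DMSO 1, the library at 26.6, the change was 2.93 (adjusted p = 0.0271). With UNC569 it was 2.65, 9.88 and 2.23 in sham and 10.5, 11.9, 79 and 21 after BDL, a change of 2.17 ± 0.84 (SE, adjusted p = 0.123).

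In lung both genes stayed low. Cxcl1 ranged from 0 to 4.83 with a median of 1.43 FPKM in bleomycin DMSO and from 0 to 0.801 with a median of 0.297 in bleomycin UNC569, and sham values were 0 to 0.375 and 0.383 to 0.921. The change with DMSO was 1.05 ± 0.45 (SE, adjusted p = 0.217). Cxcl2 was under the FPKM filter and was not tested. Its values were 0 to 0.141 in sham and ranged from 0 to 4.46 with a median of 0.877 in bleomycin DMSO, where library 4 held the highest value, and from 0 to 0.972 with a median of 0.242 in bleomycin UNC569.

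Genes of the NF-kappa B pathway were counted beside this pair, and their part in Cxcl1 and Cxcl2 was not tested. Of the 15 listed NF-kappa B subunits, targets and upstream cytokines, 13 rose in WT kidney and 12 in KO kidney, among them Relb, a subunit of the non-canonical pathway (3.4 ± 0.27 in WT), and Nfkb1 (2.09 ± 0.19 in WT and 2.06 ± 0.16 in KO). In the inhibitor kidneys 11 and 12 of 13 rose, and 1 of 13 fell with UNC569. Their median changes were 2.37, 2.24, 2.08 and 2.29. In liver 3 of 13 rose and Il17rc fell in WT, where 16.3% of all genes rose. In KO liver 7 of 13 rose, where 14% of all genes did. Icam1, a leukocyte adhesion molecule, went from 7.62 to 95.3 CPM in KO liver (edgeR adjusted p = 0.00217). In the inhibitor livers 4 and 2 of 14 rose, and in lung 0 of 14 rose in either arm.

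Other neutrophil and platelet ligands were counted beside this pair. Cxcl5, another Cxcr2 ligand, averaged 0.0662 CPM in sham KO kidney and 82.4 in UUO KO (adjusted p = 0.000192), against 5.42 and 20.5 in WT (adjusted p = 0.212). Pf4, the platelet chemokine Cxcl4, rose by 3.46 ± 0.51 in WT kidney and 4.29 ± 0.45 in KO kidney. Of the 7 listed other CXC ligands, 3 of 5 tested rose in WT kidney and 5 of 5 in KO kidney and in both inhibitor kidney arms. Cxcl11 was not analysed here in the knockout experiment. In liver Cxcl5 and Pf4 were the 2 tested, and both rose in WT, KO and DMSO livers, while neither passed with UNC569 (Cxcl5 0.17 ± 0.47, Pf4 1.32 ± 0.52). In lung 0 of 6 passed in either arm. The receptor Cxcr2 rose in KO kidney (5.35 ± 1.18), in WT liver (2.86 ± 0.78) and in KO liver (3.3 ± 0.86), and its WT kidney change of 2.29 ± 1.2 did not pass (adjusted p = 0.145).

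Cxcl9 and Cxcl10, the interferon-induced pair, rose together in obstructed kidney. Cxcl9 CPM were 1.68, 0.322 and 2.14 in sham WT and 14.5, 5.08 and 13.7 in UUO WT, a change of 2.92 ± 0.55 (SE, adjusted p = 0.000943). They were 2.91, 2.76, 3.35 and 2.06 in sham KO and 13.3, 20.9, 21.4 and 8.84 in UUO KO, a change of 2.55 ± 0.45 (SE, adjusted p = 0.000281). Sham and obstructed libraries did not overlap. The WT call rests on leaving out sham WT 1 and UUO WT 1, which held 29.2 and 11.4 CPM, since with them kept the change was 0.34 (adjusted p = 0.785).

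Cxcl10 was the larger of the pair in kidney FPKM. Its CPM were 4.4, 2.73 and 3.87 in sham WT and 55, 22.1 and 34.4 in UUO WT, a change of 3.32 ± 0.56 (SE, adjusted p = 0.000413). In sham KO it was 7.24, 7.1, 21 and 4.4, and in UUO KO 33.2, 48.1, 18.9 and 29, a change of 1.71 ± 0.44 (SE, adjusted p = 0.00439). Here sham KO 3, at 21, overlapped UUO KO 3, at 18.9. The difference between the responses, -1.61 ± 0.68 (SE, adjusted p = 0.152), did not pass.

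In the inhibitor kidneys the FPKM of Cxcl10 stood well above those of Cxcl9. Cxcl10 was 3.26, 7.18 and 5.38 in sham DMSO and 39.9, 36.7, 69 and 74.8 in UUO DMSO, a change of 3.14 ± 0.46 (SE, adjusted p = 1.86e-05). It was 10.2, 4.93 and 2.16 in sham UNC569 and ranged from 39.2 to 128 with a median of 80.1 in UUO UNC569, a change of 3.61 ± 0.42 (SE, adjusted p = 8.38e-07). Every obstructed value was above every sham value. Cxcl9 was 0.421, 1.58 and 0.603 in sham DMSO and 5.5, 3.62, 10.2 and 15.2 in UUO DMSO, a change of 2.25 ± 0.44 (SE, adjusted p = 0.000336). With UNC569 it was 1.79, 0.299 and 0.252 and ranged from 2.24 to 9.33 with a median of 5.34, a change of 1.79 ± 0.4 (SE, adjusted p = 0.000846).

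In liver neither gene rose or fell past the test with ligation. Cxcl9 CPM were 4.82, 6.35, 6.67 and 8.08 in sham WT and 1.23, 5.46, 71.7 and 4.13 in BDL WT. BDL WT 3, at 71.7, lay above sham, 1 of the others lay within the sham range and 2 below it. The log2 change was 1.68 ± 0.96 (SE, adjusted p = 0.201). Without BDL WT 3 it was -0.82. The summed T and NK cell markers of that library were 18.2 CPM against 2.26 to 4.59 in the other 3, and their part in the value was not tested. In KO-labelled liver Cxcl9 was 7.53, 3.7, 6.81 and 5.36 in sham and 0.123, 1.59, 1.12 and 6.22 after BDL (log2 change -1.35 ± 1 (SE, adjusted p = 0.332)). Cxcl10 was 2.18, 5.9, 3.85 and 3.52 and 4.8, 4.59, 16.3 and 1.1 in sham and ligated WT (0.8 ± 0.69 (SE, adjusted p = 0.397)). It was 1.9, 1.82, 1.35 and 2.96 and 1.23, 3.18, 10.9 and 12.6 in KO (1.79 ± 0.72 (SE, adjusted p = 0.0773)). The KO value of Cxcl10 passed with DESeq2 (adjusted p = 0.0299) and without BDL WT 3 (0.0429), BDL WT 4 (0.0483) or BDL KO 1 (0.0349).

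In the inhibitor livers neither gene passed. Cxcl9 was 2.95, 1.59 and 4.99 FPKM in sham DMSO and ranged from 0.59 to 7.6 with a median of 3.02 in BDL DMSO (-0.1 ± 0.45 (SE, adjusted p = 0.908)). In BDL UNC569 it was 0.199, 0.54, 2.72 and 0.301, against 1.99, 3.74 and 3.9 in sham UNC569 (-1.25 ± 0.49 (SE, adjusted p = 0.128)). Without BDL UNC569 3, the library at 2.72, this was -1.62 (adjusted p = 0.0357). Cxcl10 was 3.09, 1.51 and 6.9 in sham DMSO, ranged from 1.12 to 19.4 with a median of 9.62 in BDL DMSO, and was 1.93, 1.46, 4.91 and 2.17 in BDL UNC569 against 4.31, 0.762 and 5.04 in sham. The changes of Cxcl10 were 1.03 ± 0.57 (SE, adjusted p = 0.254) and -0.17 ± 0.62 (SE, adjusted p = 0.908), and the former passed without BDL DMSO 4 (1.44, adjusted p = 0.0399).

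Bleomycin lungs gave a wide spread for both. Cxcl10 ranged from 2.55 to 25 with a median of 6.94 FPKM in bleomycin DMSO against 2.27 to 2.86 in sham (1.32 ± 0.6 (SE, adjusted p = 0.232)). 5 libraries were above sham and library 1, at 2.55, was not. Cxcl9 ranged from 0 to 2.74 with a median of 0.792 against 0.164 to 0.468 (0.55 ± 0.47 (SE, adjusted p = 0.536)). With UNC569 the medians were 3.27 for Cxcl10 and 0.324 for Cxcl9.

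Interferon-gamma signalling genes were counted beside the pair. Of 19 tested genes 12 rose in WT kidney and 10 in KO kidney, with medians of 2.05 and 1.12, and of 18 tested 18 and 16 rose in DMSO and UNC569 kidneys. The receptor chains Ifngr1 (2.21 ± 0.21) and Ifngr2 (1.91 ± 0.19) were the leading genes in WT kidney. In liver 5 of 19 rose in WT and 2 of 19 in KO. In DMSO liver 1 of 17 rose and 2 fell, among them the GTPase Iigp1 by -1.42 ± 0.32, and in UNC569 liver 4 fell, among them Gbp3 and Psmb9. In lung 0 of 18 passed. Cxcr3, the receptor of Cxcl9 and Cxcl10, rose in all 4 kidney comparisons, by 4.65 ± 0.78 in WT, 3.24 ± 0.59 in KO, 2.56 ± 0.26 with DMSO and 2.91 ± 0.23 with UNC569. T and NK cell markers rose beside them, 10 and 11 of 13 in WT and KO kidney. In bulk tissue more cells of a type and more RNA per cell cannot be told apart.

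Cxcl16, the membrane-bound Cxcr6 ligand, rose in every kidney comparison with injury. Its CPM were 31.2, 15.4 and 40.6 in sham WT and 207, 216 and 226 in UUO WT, and 31.9, 41.1, 53.2 and 34.6 and 180.3, 272, 196 and 279 in KO. The changes were 2.89 ± 0.32 (SE, adjusted p = 1.9e-05) and 2.53 ± 0.27 (SE, adjusted p = 4.55e-06). The lowest obstructed library held 180.3 and the highest sham library 53.2. In the inhibitor kidneys Cxcl16 was 30.9, 28.2 and 33.9 FPKM in sham DMSO, 30.2, 29.7 and 30.8 in sham UNC569, 128, 139, 162 and 162 in UUO DMSO and ranged from 132 to 170 with a median of 157 in UUO UNC569. The changes of Cxcl16 there were 2.21 ± 0.13 (SE, adjusted p = 7.59e-10) and 2.3 ± 0.11 (SE, adjusted p = 5.68e-11).

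In liver the rise of Cxcl16 passed in the WT and DMSO arms. CPM were 5.76, 5.71, 4.4 and 6.78 in sham WT and 19.8, 19.2, 37.7 and 11.3 in BDL WT, with no overlap (1.96 ± 0.41 (SE, adjusted p = 0.00294)). KO-labelled liver held 4.52, 5.4, 5.65 and 5.67 in sham and 2.71, 15.8, 9.43 and 8.85 after BDL (0.79 ± 0.41 (SE, adjusted p = 0.16)), with BDL KO 1 below sham. Without BDL KO 1 the KO change was 1.1 (adjusted p = 0.0299). With all libraries of noted bad files left out, which kept only BDL KO 2 and 4 of the BDL KO group, it was 1.22 (0.0496). DMSO livers of Cxcl16 went from 5.19, 3.08 and 6.77 FPKM to a range from 8.16 to 23.2 with a median of 11.8 (1.32 ± 0.34 (SE, adjusted p = 0.018)), a call lost without sham DMSO 2 (1.06, adjusted p = 0.114). UNC569 livers were 3.56, 7.77 and 5.44 in sham and 3.65, 7.57, 8.08 and 3.87 after BDL, a difference of 0.03 ± 0.37 (SE, adjusted p = 0.979). The difference between the DMSO and UNC569 responses was -1.29 ± 0.5, with an unadjusted limma p of 0.0201 and an adjusted p of 0.996.

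In lung Cxcl16 ranged from 45.5 to 81.1 with a median of 71.9 FPKM in bleomycin DMSO, where 5 of 6 libraries were above the sham DMSO values of 33.9, 32.3 and 48.4. The change was 0.81 ± 0.23 (SE, adjusted p = 0.1), and it passed without sham DMSO 3 (0.99, adjusted p = 0.0209) or without bleomycin DMSO 1 (0.92, 0.0465). With the cardiac muscle sum as a covariate it was 0.51 (adjusted p = 0.62). Bleomycin UNC569 values ranged from 37.5 to 82.2 with a median of 50.9 against 51.7, 33.5 and 41.7 in sham UNC569 (0.28 ± 0.23 (SE, adjusted p = 0.68)).

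Summed macrophage markers went from 84.8 to 185 CPM in sham WT to 1160 to 2240 in UUO WT, and their part in Cxcl16 was not tested. Its receptor and proteases were measured too. Cxcr6 rose by 2.86 ± 0.62 in WT, 3.83 ± 0.54 in KO, 1.97 ± 0.31 with DMSO and 1.88 ± 0.28 with UNC569. Adam10 rose by 1.37 ± 0.21 in KO kidney and by 1.08 ± 0.19 with DMSO, and in WT liver by 1.21 ± 0.19. Of the 7 listed genes that process or retain chemokines, 3 rose in WT kidney, 5 rose and 1 fell in KO kidney, and 3 and 4 rose in WT and KO liver. In the inhibitor experiment 3 of 6 rose with DMSO and 3 rose and 2 fell with UNC569 in kidney, 1 of 7 rose and 1 fell with DMSO and 1 rose with UNC569 in liver, and 0 of 7 passed in lung. Sdc1, a heparan sulfate proteoglycan that holds chemokines, rose in each of the 4 kidney comparisons (adjusted p from 4.82e-07 to 0.0179).

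**Figure D2:**
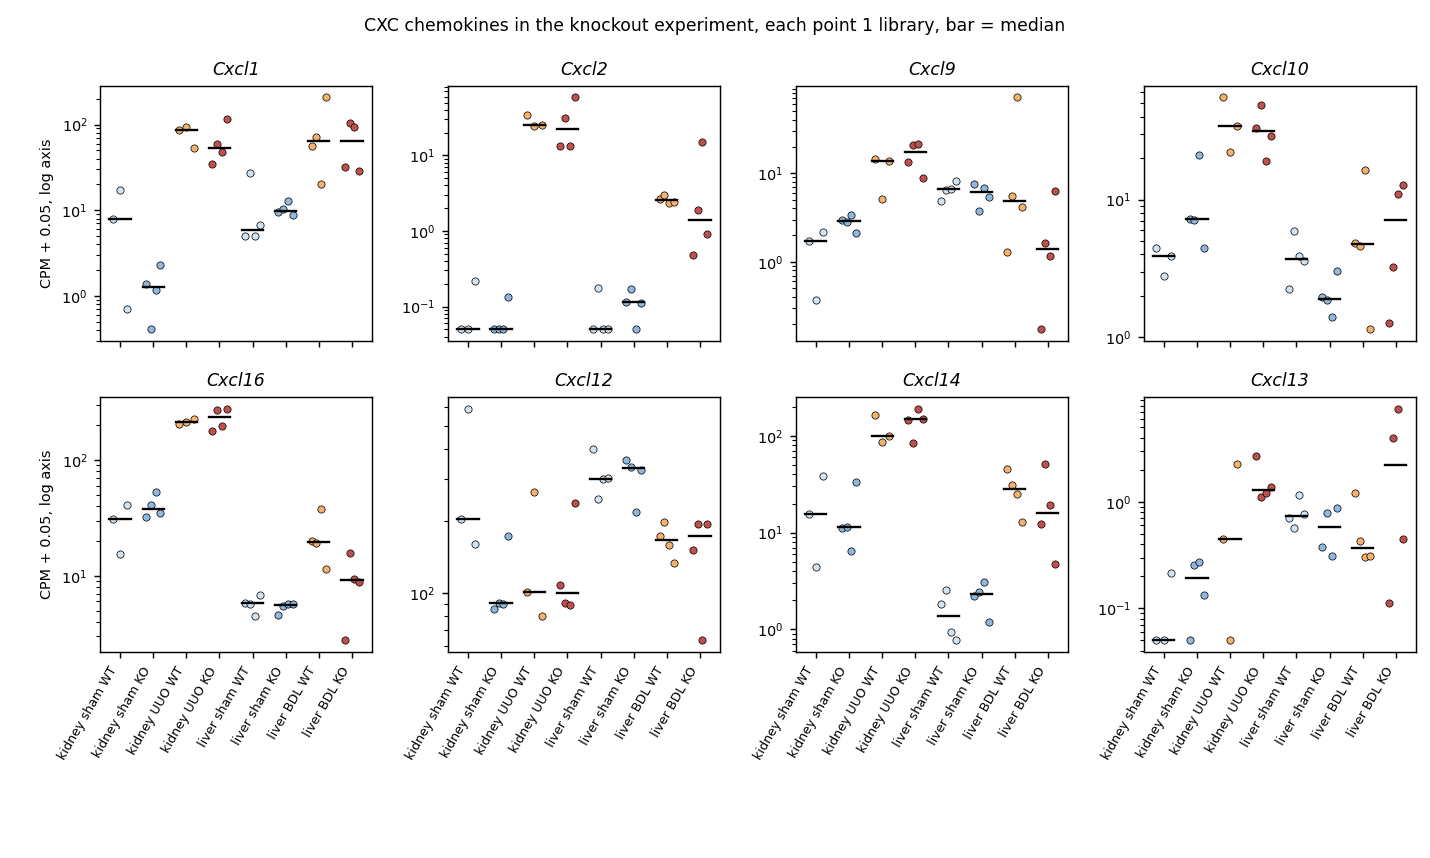
CPM of each member in the knockout experiment on a log axis, with 0.05 added so that values of 0 can be drawn; each point is 1 library and each bar a group median, for sham and obstructed kidney and sham and ligated liver. Obstructed kidney libraries sit above sham for Cxcl1, Cxcl2, Cxcl9, Cxcl14 and Cxcl16 in both arms, and Cxcl12 is lower in ligated than in sham liver.

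Cxcl12, the constitutive ligand of Cxcr4, went the other way in liver. CPM were 401, 248, 299 and 302 in sham WT and 172, 198, 159 and 133 in BDL WT, and 359.9, 337, 219 and 329 and 151, 194, 63.1 and 194 in KO. No ligated library reached a sham value within its arm. The changes were -0.92 ± 0.29 (SE, adjusted p = 0.027) and -1.05 ± 0.29 (SE, adjusted p = 0.0174). The WT call of Cxcl12 was lost without sham WT 1, sham WT 4, BDL WT 3 or BDL WT 4 (adjusted p 0.0502 to 0.0789), and the KO call without sham KO 1 (0.0513) or with the libraries of noted bad files left out (-0.67, adjusted p = 0.106). The last setting kept only BDL KO 2 and 4 of the BDL KO group.

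DMSO livers also gave a fall. Cxcl12 was 266, 204 and 273 FPKM in sham DMSO and ranged from 73.6 to 164 with a median of 113 in BDL DMSO, with no overlap (-1.11 ± 0.24 (SE, adjusted p = 0.00677)). UNC569 livers went from 198, 199 and 274 to 104, 130.5, 202 and 138 (-0.66 ± 0.26 (SE, adjusted p = 0.132)), where BDL UNC569 3, at 202, lay within the sham range. Without that library the change of Cxcl12 was -0.84 (adjusted p = 0.0451).

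Kidney gave no called change of Cxcl12 and very uneven libraries. CPM were 204, 593 and 160.3 in sham WT, 101, 265 and 79.5 in UUO WT, 85.2, 90.8, 89.6 and 174 in sham KO and 108, 90.6, 88.5 and 237 in UUO KO. The changes were -1.1 ± 0.56 (SE, adjusted p = 0.134) and 0.26 ± 0.48 (SE, adjusted p = 0.668), and without UUO WT 3 the WT change was -1.81 (adjusted p = 0.0279). In the inhibitor kidneys it was 88.3, 88.3 and 63.9 FPKM in sham DMSO, 89.5, 74.6, 44 and 54.4 in UUO DMSO, 73.7, 93.1 and 57.3 in sham UNC569 and ranged from 25.7 to 144 with a median of 48.5 in UUO UNC569. These groups overlapped (-0.32 ± 0.5 (SE, adjusted p = 0.607) and -0.32 ± 0.45 (SE, adjusted p = 0.56)). Sham WT 3 and UUO WT 3, the highest Cxcl12 of their groups, also stood apart in summed fibroblast markers, 6870 CPM against 309 and 370 in the other sham WT and 1660 against 10600 and 13900 in the other UUO WT libraries. Their part in these values was not tested.

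In lung Cxcl12 was 78.4, 81.4 and 84 FPKM in sham DMSO and ranged from 102 to 258 with a median of 134 in bleomycin DMSO, with all 6 above sham, yet the change of 0.92 ± 0.3 (SE, adjusted p = 0.133) did not pass by limma. With the cardiac muscle covariate it was 0.76 (adjusted p = 0.638). Bleomycin UNC569 ranged from 83 to 244 with a median of 97.2 against 99, 112 and 124 in sham UNC569 (-0.02 ± 0.3 (SE, adjusted p = 0.985)). The difference between these responses was -0.94 ± 0.43 (adjusted p = 0.409 by limma). Its receptor Cxcr4 rose in kidney by 2.42 ± 0.25 in WT, 2.71 ± 0.22 in KO, 2.23 ± 0.29 with DMSO and 1.2 ± 0.26 with UNC569. In liver Cxcr4 rose by 3.59 ± 0.42 in WT, 2.67 ± 0.43 in KO and 1.46 ± 0.28 with DMSO, and with UNC569 the value was 0.41 ± 0.3 (adjusted p = 0.459). Of the 8 listed receptors and scavengers, 4 of 7 tested rose in WT kidney, 5 of 7 in KO kidney, 3 and 4 of 5 in the inhibitor kidneys, 2 of 4 in WT and KO liver, 1 and 0 of 3 in DMSO and UNC569 liver, and 0 of 8 in lung. The scavenger Ackr3 was 65.4 CPM on average in sham WT kidney and 67.8 in UUO WT (0.05 ± 0.16).

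Cxcl14, the epithelial and stromal chemokine, rose with both kidney and liver injury. Kidney CPM were 15.7, 4.34 and 38 in sham WT, 165, 87.4 and 101 in UUO WT, 11, 11.5, 6.47 and 33.1 in sham KO and 148, 85.1, 192 and 151 in UUO KO. All obstructed libraries were above all sham libraries, with changes of 2.58 ± 0.66 (SE, adjusted p = 0.00684) and 3.2 ± 0.58 (SE, adjusted p = 0.000343). With sham WT 1 and UUO WT 1 kept, the WT change of Cxcl14 was 2.48 (adjusted p = 0.0602). Inhibitor kidneys held 33, 39.8 and 39.95 FPKM in sham DMSO, 249, 220.5, 176 and 148 in UUO DMSO, 22.1, 26.9 and 10.1 in sham UNC569 and ranged from 55.3 to 167 with a median of 137 in UUO UNC569. Cxcl14 changed there by 2.35 ± 0.39 (SE, adjusted p = 5.64e-05) and 2.47 ± 0.35 (SE, adjusted p = 7.9e-06).

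Ligated liver showed the largest fitted rise of any member but Cxcl2 in that table. Cxcl14 CPM were 1.76, 2.5, 0.894 and 0.717 in sham WT and 45.5, 30.9, 25.3 and 12.8 in BDL WT (4.27 ± 0.66 (SE, adjusted p = 0.00037)). KO-labelled liver went from 2.16, 2.37, 3.02 and 1.13 to 12.3, 50.7, 19.2 and 4.74 (3.32 ± 0.63 (SE, adjusted p = 0.00213)). The lowest ligated library, BDL KO 4 at 4.74, was still above every sham library. DMSO livers of Cxcl14 went from 2.58, 1.02 and 0.342 FPKM to a range from 1.36 to 16.8 with a median of 10.7, with 1 of 6 inside the sham range (2.08 ± 0.57 (SE, adjusted p = 0.0244)). That call was lost without sham DMSO 2 (2.04, adjusted p = 0.0879), sham DMSO 3 (1.75, 0.135) or BDL DMSO 5 (1.89, 0.05) and with no FPKM filter (0.0512). UNC569 livers went from 1.28, 2.53 and 0.909 to 7.14, 6.89, 26.4 and 4.84 (2.02 ± 0.62 (SE, adjusted p = 0.0525)), and the change of 2.02 passed without BDL DMSO 3 (0.0158) or BDL DMSO 5 (0.0479).

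Lung Cxcl14 was high in every group and did not respond past the test. It was 145, 131 and 212 FPKM in sham DMSO and ranged from 132 to 219 with a median of 161 in bleomycin DMSO (0.05 ± 0.21 (SE, adjusted p = 0.929)). With UNC569 it was 239, 149.7 and 212 and ranged from 104 to 176 with a median of 161 (-0.43 ± 0.21 (SE, adjusted p = 0.497)). The groups overlapped. Fibroblast markers are given for scale beside the kidney and liver rises: 5 and 9 of 9 rose in WT and KO kidney, 9 and 9 in the inhibitor kidneys, 8 and 4 in WT and KO liver, 2 and 0 in DMSO and UNC569 liver and 0 in lung, and their part in Cxcl14 was not tested.

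**Figure D3:**
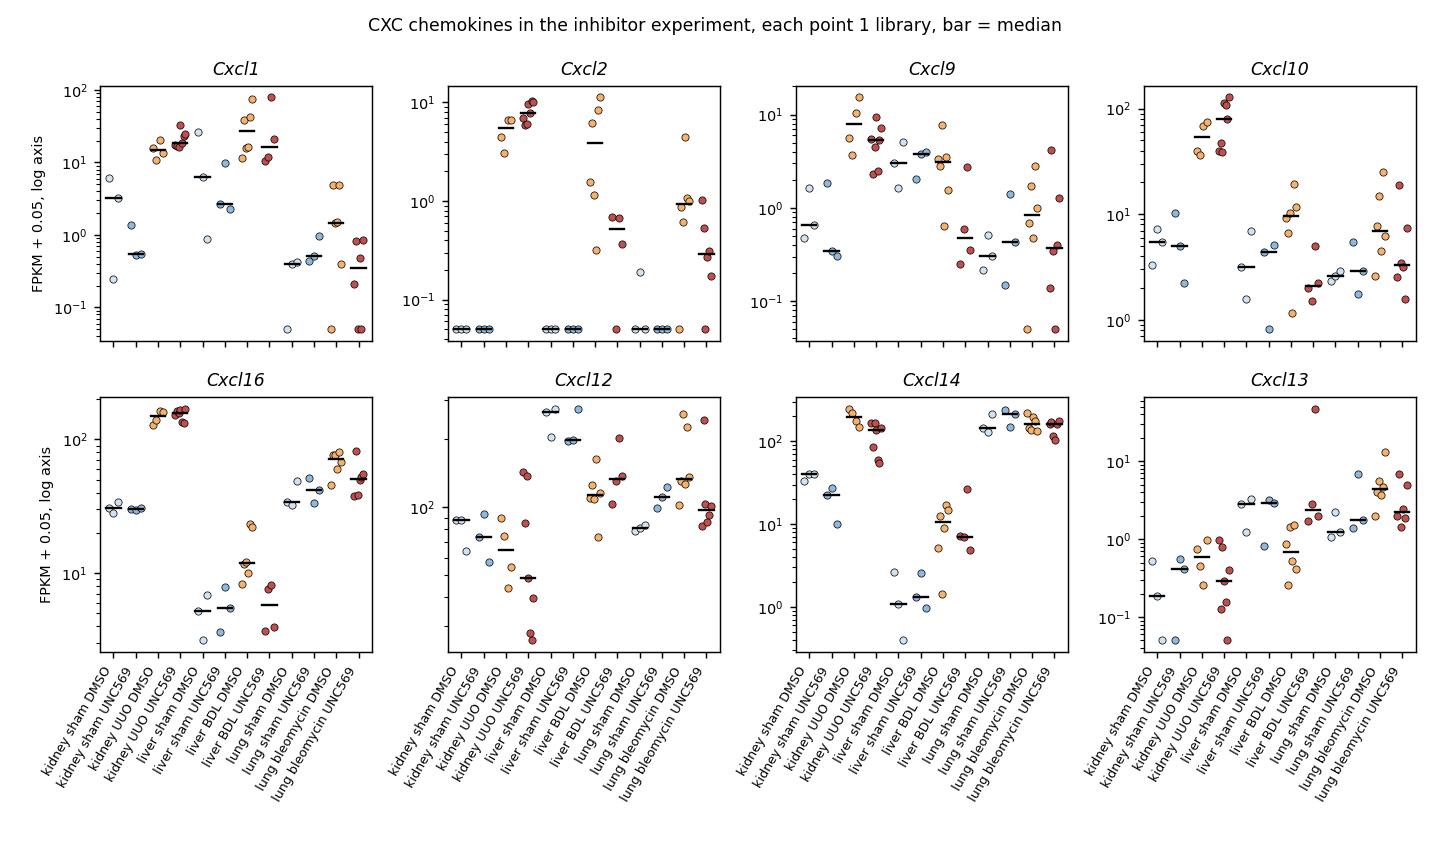
FPKM of each member in the inhibitor experiment on a log axis, with 0.05 added so that values of 0 can be drawn; each point is 1 library and each bar a group median, for kidney, liver and lung with DMSO or UNC569. Cxcl16 stands at 128 to 170 FPKM in obstructed kidney against 28.2 to 33.9 in sham, and lung Cxcl14 overlaps across its 4 groups.

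Cxcl13, the B cell chemokine, was scarce in kidney. Sham kidney held 0, 0 and 0.165 CPM in WT and 0, 0.204, 0.223 and 0.0839 in KO. UUO held 0.394, 0 and 2.19 in WT, where 1 library had no read, and 2.67, 1.07, 1.15 and 1.33 in KO, all above sham KO. The KO change was 3.52 ± 1.1 (SE, adjusted p = 0.0133). In WT the reads went from 2 to 52, a ratio per depth of 13.6 (95% counting interval 3.59 to 116), and the change did not pass by edgeR (adjusted p = 0.0684). It passed with DESeq2 (0.0453) and without UUO WT 3 (4.22, adjusted p = 0.0198), and the KO call was lost with sham WT 1 and UUO WT 1 kept (3.37, adjusted p = 0.126). Inhibitor kidneys held at most 0.935 FPKM of Cxcl13 and it was not tested there.

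Liver Cxcl13 split after injury rather than moving as a group. CPM were 0.647, 0.513, 1.1 and 0.717 in sham WT, 1.17, 0.382, 0.252 and 0.258 in BDL WT, 0.328, 0.728, 0.257 and 0.819 in sham KO and 0.0616, 3.92, 7.43 and 0.4 in BDL KO. In BDL KO, libraries 2 and 3 were the highest of the table and library 1 was the lowest. The changes were -0.54 ± 0.94 (SE, adjusted p = 0.692) and 2.44 ± 0.93 (SE, adjusted p = 0.064). The KO change passed with DESeq2 (0.0235), without BDL KO 1 (2.84, 0.017) and without BDL KO 4 (2.8, 0.0261). Inhibitor livers held 2.78, 1.19 and 3.17 FPKM in sham DMSO, ranged from 0.204 to 1.49 with a median of 0.639 in BDL DMSO, and held 0.761, 3.15 and 2.86 in sham UNC569 and 1.67, 2.76, 47.2 and 1.92 in BDL UNC569. The changes of Cxcl13 were -0.92 ± 0.67 (SE, adjusted p = 0.389) and 1.01 ± 0.72 (SE, adjusted p = 0.443).

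In lung Cxcl13 was 1.02, 2.21 and 1.19 FPKM in sham DMSO and ranged from 1.93 to 13.2 with a median of 4.29 in bleomycin DMSO, with 5 of 6 above sham (1.24 ± 0.47 (SE, adjusted p = 0.166)). With UNC569 it was 1.34, 6.71 and 1.69 in sham and ranged from 1.36 to 6.8 with a median of 2.16 after bleomycin (0.06 ± 0.47 (SE, adjusted p = 0.973)). Cxcr5, its receptor, was 0.0275 and 0.632 CPM on average in sham and UUO WT kidney (adjusted p = 0.0546) and 0.216 and 0.265 in KO (0.863). Of the lymphotoxin and follicle list, 8 of 11 rose in WT kidney, 8 rose and 1 fell in KO kidney, 7 of 10 rose in each inhibitor kidney arm with 1 falling in DMSO, and in liver 1 of 4 rose in WT, 2 of 4 in KO and 1 of 5 in each inhibitor arm. In lung 0 of 11 passed. Ccr7, the lymph node homing receptor, rose by 3.6 ± 0.54 in WT kidney and 4.45 ± 0.47 in KO kidney. Of 9 B and plasma cell markers 3 rose in WT kidney, a share near the 23.3% of all genes, and 7 rose in KO kidney, and their part in these values was not tested.

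By edgeR on all the libraries kept, no member was called between the KO and WT labels within kidney or liver, before or after injury, while DESeq2 called 1 member in sham kidney and 3 in ligated liver. Over all genes DESeq2 called 27 higher and 288 lower in sham kidney and 1046 higher and 862 lower in ligated liver, more than edgeR did. In obstructed kidney 0% of genes were called by edgeR, with 1902 at an unadjusted p under 0.05, and DESeq2 called 1 gene higher and 6 lower. The 8 members had log2 differences (KO minus WT) from -0.28 for Cxcl1 to 0.84 ± 1.02 for Cxcl13, none with an unadjusted p under 0.05, and their median was 0.08 beside 0 over all genes. The approximate standard errors were 0.28 to 1.02, so differences of about that size could not be resolved. UUO WT and UUO KO ranges overlapped for every member.

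In sham kidney 0.0061% of genes were called by edgeR, and 3 members had an unadjusted p under 0.05, as did 2575 of the 16395 genes tested. Cxcl1 was -2.67 ± 0.76 (unadjusted p = 0.00328, adjusted p = 0.214), Cxcl12 was -1.54 ± 0.52 (adjusted p = 0.225) and Cxcl10 was 1.4 ± 0.51 (adjusted p = 0.239), with all 4 sham KO values of Cxcl10 above the 3 sham WT values. DESeq2 called Cxcl1 (-2.74, adjusted p = 0.049), where it called 27 genes higher and 288 lower in all. Without sham WT 4, the lowest sham WT library for Cxcl1 and Cxcl12, both Cxcl1 (-3.14, 0.00382) and Cxcl12 (-1.74, 0.0334) passed by edgeR. The summed fibroblast markers were 309 to 6870 CPM in sham WT and 167 to 277 in sham KO, with no overlap, and their part in these values was not tested. The difference between the KO and WT injury responses was called for 0% of genes, with 4466 at an unadjusted p under 0.05, and for no member, and DESeq2 called 1104 genes higher and 547 lower and no member. The member medians were 0.07 in sham and 0.25 for the difference of responses, beside 0.02 and -0.02 over all genes.

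In ligated liver 4.39% of all genes were called by edgeR between BDL KO and BDL WT. With the libraries of noted bad files left out 0 were called, and that setting kept only BDL KO 2 and 4 of the BDL KO group. With all libraries, none of the 8 members was called, and 3 had an unadjusted p under 0.05, as did 3601 of the 13492 genes tested. Cxcl9 was -3.17 ± 1.04 (unadjusted p = 0.00738, adjusted p = 0.0751), Cxcl16 was -1.26 ± 0.4 (0.00664 and 0.0727) and Cxcl13 was 2.51 ± 0.93 (0.0154 and 0.101). DESeq2 called all 3, with adjusted p of 0.0266, 0.0297 and 0.0381, where it called 1046 genes higher and 862 lower in all. Cxcl13 was low, at 0.252 to 1.17 CPM in BDL WT and 0.0616 to 7.43 in BDL KO. The member median was -0.27 beside -0.02 over all genes. The groups overlapped for each of the 3 genes: 2 BDL KO values of Cxcl9 were below BDL WT, 3 of Cxcl16 were below and 2 of Cxcl13 were above.

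Leaving out single libraries moved these values. Without BDL WT 3 the Cxcl9 difference was -0.65 (adjusted p = 0.659) and the Cxcl16 difference -0.86 (0.261). Without BDL WT 1 Cxcl9 was -3.56 (0.0296), without BDL KO 4 it was -4.45 (0.0329), and without BDL KO 2 Cxcl16 was -1.65 (0.0205). Without BDL KO 3 Cxcl13 was 1.5 (0.303). Cell type markers moved with the labels: summed bile duct markers were 850 to 2300 CPM in BDL WT and 69.4 to 434 in BDL KO, with no overlap, macrophage markers 604 to 1190 and 97.1 to 753, and fibroblast markers 559 to 1850 and 265 to 625. Hepatocyte markers went the other way, from 48200 to 89500 CPM in BDL WT and from 108000 to 170000 in BDL KO, with no overlap. The part of these cell types in the chemokine values was not tested. In sham liver 0% of genes were called by edgeR (70 at an unadjusted p under 0.05) and 0 by DESeq2, and no member had an unadjusted p under 0.05, with a median of -0.09 beside 0. The difference of responses was called for 0% of genes (1952 at an unadjusted p under 0.05), while DESeq2 called 93 higher and 53 lower and no member. It was -3.02 ± 1.39 for Cxcl9 (adjusted p = 0.335) and 2.98 ± 1.31 for Cxcl13 (adjusted p = 0.323), with a member median of -0.25 beside -0.02.

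Few of the listed pathway genes passed in this comparison, where 4.39% of all genes were called. Cxcr4 averaged 6.49 CPM in BDL WT and 2.15 in BDL KO (-1.59 ± 0.38, adjusted p = 0.0394), Adam10, the protease that sheds Cxcl16, 57.1 and 35.6 (-0.68 ± 0.19, 0.0489), and the NF-kappa B subunit Rela 63.7 and 160 (1.33 ± 0.36, 0.0479). Of 19 interferon-gamma genes 0 passed, with a median of -0.87 beside -0.02 over all genes, and the genes of small p included Ciita, the master regulator of MHC class II (adjusted p = 0.0573), and Gbp3 (0.0683). Of the other lists, 0 of 2 ligands, 1 of 4 receptors, 1 of 7 processing genes, 1 of 13 NF-kappa B genes and 0 of 4 lymphotoxin and follicle genes passed. The shares of these short lists were not tested against that of all genes.

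By limma on log2(FPKM + 1) no member was called between UNC569 and DMSO either. In obstructed kidney 1.3% of genes were called by limma (38 higher and 161 lower, or 74 and 169 with median-of-ratios scaling) and 0 of 7 members. An unadjusted p under 0.05 was found for 2 members and for 2829 of the 15338 genes tested. Cxcl2 was 0.59 ± 0.19 (unadjusted p = 0.00543, adjusted p = 0.114), with 5 of 7 UNC569 libraries above every DMSO library. Cxcl14 was -0.87 ± 0.32 (0.0138 and 0.163), with 5 of 7 below every DMSO library. Summed neutrophil markers were 8 to 16.9 FPKM in UUO DMSO and 22.1 to 48 in UUO UNC569, with no overlap, and their part in the Cxcl2 value was not tested. Ciita (-0.69 ± 0.16, adjusted p = 0.0477), Ccr7 (-1.15 ± 0.22, 0.03), Clu (-0.89 ± 0.2, 0.0405) and Sdc1 (-0.76 ± 0.18, 0.0477) were lower with UNC569, which makes 1 of 18 interferon-gamma, 2 of 10 lymphotoxin and follicle and 1 of 6 processing genes, and 0 of the NF-kappa B genes, other ligands and receptors passed. The member median was 0.06 beside -0.03.

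Sham kidneys with UNC569 differed from sham DMSO in 19.3% of genes (2033 higher and 928 lower, or 1222 and 1634 with median-of-ratios scaling, which moved the median of all genes by -0.12) and in 0 of 7 members. Cxcl14 was -0.99 ± 0.41 (adjusted p = 0.0994), with no overlap between the groups, and passed with median-of-ratios scaling (-1.16, adjusted p = 0.0458). Cxcl1 was -0.93 ± 0.45 (adjusted p = 0.154), and without sham DMSO 2, whose Cxcl1 was 0.195, it was -1.66 (0.00527). Pf4 (1.24 and 0 FPKM on average, adjusted p = 0.0196) and Cxcr3 (1.31 and 0.111, 0.0182) were lower. Summed endothelial markers were 197 to 272 FPKM in sham DMSO and 53.6 to 104 in sham UNC569, and macrophage markers 164 to 207 and 66 to 130, both without overlap, and their part was not tested. The responses differed for 19.6% of genes (947 higher and 2053 lower, or 1586 and 1366 with that scaling, a median shift of 0.16) and for no member, with Cxcl1 at 1.38 ± 0.56 (SE, adjusted p = 0.0912), or 2.11 (0.00391) without sham DMSO 2. The member medians were -0.11 and 0.13 beside 0.07 and -0.13.

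In ligated liver 0.316% of genes were called between UNC569 and DMSO (16 higher and 25 lower, or 10 and 26 with median-of-ratios scaling), and 0 of 8 members. An unadjusted limma p under 0.05 was found for 5 members and for 1454 of the 12986 genes tested. Cxcl16 was -1.16 ± 0.31 (unadjusted p = 0.00173, adjusted p = 0.139), all 4 UNC569 libraries lying below all 6 DMSO libraries. Cxcl13 was 1.83 ± 0.61 (0.00805 and 0.26), all 4 lying above. Both gaps were narrow. The highest UNC569 value of Cxcl16 was 8.08 FPKM beside a lowest DMSO value of 8.16. For Cxcl13 the lowest UNC569 value was 1.67 beside a highest DMSO value of 1.49. The share of all genes without overlap was not counted. Cxcl2 was -1.62 ± 0.5 (0.00479 and 0.213), Cxcl9 -1.09 ± 0.41 (0.0174 and 0.334) and Cxcl10 -1.37 ± 0.52 (0.0177 and 0.336). Those 3 overlapped. The Cxcl13 difference was 0.84 (adjusted p = 0.198) without BDL UNC569 3, which held 47.2 FPKM of Cxcl13 and a neutrophil marker sum of 727 FPKM against 77.9 to 152 in the other UNC569 libraries. Without BDL DMSO 4 Cxcl2 was -1.96 (0.0454) and was then the 1 member called. The member median was -0.69 beside 0.09.

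Here too the marker sums moved. Bile duct markers were 130 to 817 FPKM in BDL DMSO and 91 to 122 in BDL UNC569, with no overlap, and macrophage markers were 645 to 1640 against 371 to 397 in 3 UNC569 libraries and 1090 in BDL UNC569 3. Hepatocyte markers went the other way, from 25300 to 36200 FPKM in BDL DMSO and from 42100 to 44700 in BDL UNC569, with no overlap. The part of these cell types in the chemokine values was not tested. In sham liver 0% of genes were called (241 at an unadjusted p under 0.05, no member among them), and the responses differed for 0% (610 at an unadjusted p under 0.05, Cxcl16 among them). Member medians were -0.05 and -0.61 beside 0 and 0.09. Of the related lists 0 genes passed between UNC569 and DMSO in ligated liver, and the Cxcr4 value was -1.01 ± 0.26 (adjusted p = 0.126).

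**Figure D4:**
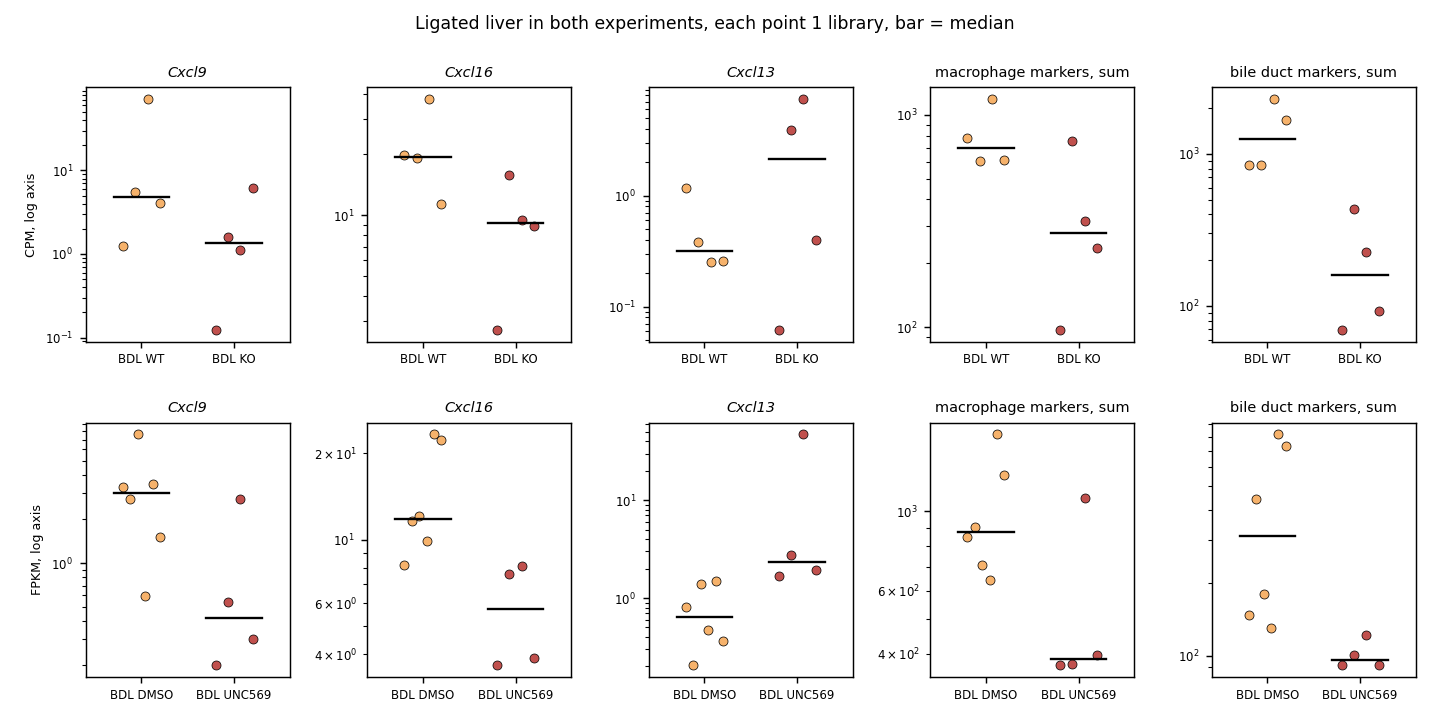
Ligated liver in the knockout experiment (top, CPM) and the inhibitor experiment (bottom, FPKM) on log axes: Cxcl9, Cxcl16, Cxcl13 and the summed macrophage and bile duct markers, each point 1 library and each bar a group median. In both rows the right-hand group has lower medians of Cxcl9, Cxcl16 and both marker sums and a higher median of Cxcl13. No chemokine difference passed by edgeR (top) or limma (bottom), and bile duct markers did not overlap. DESeq2 called all 3 in the top row, with 1046 genes higher and 862 lower in all. Among the members not drawn, the fitted differences of Cxcl2, Cxcl10, Cxcl12 and Cxcl14 had opposite signs in the knockout and inhibitor experiments.

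The separate experiments can be set side by side in ligated liver, since they share no library. KO minus WT and UNC569 minus DMSO were -3.17 and -1.09 for Cxcl9, -1.26 and -1.16 for Cxcl16 and 2.51 and 1.83 for Cxcl13. The signs were also the same for Cxcl1, at -0.46 and -0.3. They were opposite for Cxcl2 (0.82 and -1.62), Cxcl10 (0.05 and -1.37), Cxcl12 (-0.14 and 0.3) and Cxcl14 (-0.4 and 0.16). The scales differ, log2 CPM against log2(FPKM + 1), so only signs can be read across, and none of these values passed by edgeR or limma. DESeq2 called the KO minus WT values of Cxcl9, Cxcl16 and Cxcl13, where it called 1046 genes higher and 862 lower in all.

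In bleomycin lung 0% of genes were called between UNC569 and DMSO (843 at an unadjusted p under 0.05), 0% in sham lung (1206) and 0% for the difference of responses (1893). No member was called in any of them. Cxcl1 after bleomycin was -0.94 ± 0.37 (adjusted p = 0.867 by limma). All 7 tested members had negative values there, from -0.18 for Cxcl9 and Cxcl14 to that of Cxcl1, and the member median was -0.49 beside -0.01 over all genes. In sham lung the median was 0.3 beside 0.01 and for the difference of responses -0.89 beside -0.03. Summed neutrophil markers were 63.5 to 253 FPKM with DMSO and 176 to 919 with UNC569 after bleomycin.

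Genes with the most similar pattern were found over the 8 group means of the knockout experiment, as the smallest root mean square difference of centred log2 CPM among 13112 genes tested in both organs. Cxcl1 was closest to Lum (0.48) and Sox9 (0.55), and Cxcl2 to Ltbp2 (0.57) and Mmp7 (0.59). Cxcl9 was closest to Pilrb1 (0.36) and Psmb9 (0.42), and Cxcl10 to Gm13889 (0.27) and Csf2ra (0.28). For Cxcl16 they were Itgb4 (0.17) and Icosl (0.25), for Cxcl14 Sh3pxd2b (0.21) and Osmr (0.39), for Cxcl12 B230217O12Rik (0.27) and Pdk1 (0.3), and for Cxcl13 Cenpw (0.33) and Btbd19 (0.44). About their own mean the members varied by a root mean square of 2.06 (Cxcl1), 3.1 (Cxcl2), 1.24 (Cxcl9), 1.38 (Cxcl10), 0.6 (Cxcl12), 1.08 (Cxcl13), 2.2 (Cxcl14) and 2.02 (Cxcl16). A distance must be read beside that value and cannot be compared directly between members. These are descriptions over 8 means, with no test.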

How the data were processed

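RNA was measured by sequencing of reads of about 100 bases, per the labels' protocols. For the knockout experiment the deposited values are raw read counts per gene from STAR. The unstranded column was taken, since the labelled kit does not mark strand. For the inhibitor experiment the authors deposited FPKM, and the tool that made them is not given in the sources used here. FastQC, Trim Galore, STAR and edgeR and the builds mm10 and hg38 are named, without versions, per the submitters' processing notes. FPKM columns name the group and not the sample, so a library number there is only a name.

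Counts were filtered with filterByExpr, scaled with the trimmed mean of M values and tested with edgeR 4.0.16 (quasi-likelihood F test, R 4.3.3), for 16395 genes in 14 kidney libraries and 13492 genes in 16 liver libraries. FPKM were tested with limma 3.58.1 with an intensity trend on log2(FPKM + 1), keeping genes that reached 1 FPKM in 3 or more libraries, which left 15338 genes in kidney, 12986 in liver and 15935 in lung. The 4 groups of a table shared 1 fit. Benjamini-Hochberg adjustment ran over all genes of a contrast, and a gene was called at an adjusted p under 0.05. Alternatives were DESeq2 1.42.0, other scalings, filters and pseudocounts, a replicate block and leaving out libraries. The scripts were tested on simulated data.

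The members and the gene lists were chosen with earlier results of these data known. All members were described in every comparison, and from each list counts and up to 3 genes of smallest p in a comparison, with receptors and other ligands free to be named. Gene IDs matched the annotation for 99.6% of the count table and 94.9% of the FPKM tables.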

Additional observations from a re-analysis of the deposited data

Results flagged for a closer look

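In 96 combinations of a member and a group of 4 to 10 libraries, the gap between the most extreme library and the next was checked against Dixon's critical value. Chance alone passes about 1 in 20 of these combinations. It was passed 6 times. Cxcl1 in liver sham WT 2 was 27.4 CPM beside 4.953 to 6.648 in the other sham WT livers. Cxcl12 in kidney sham KO 4 was 173.7 CPM beside 85.25 to 90.76. Cxcl12 in lung bleomycin UNC569 2 was 243.8 FPKM beside 83.04 to 103.2. Cxcl13 in liver BDL UNC569 3 was 47.25 FPKM beside 1.672 to 2.758. Cxcl2 was 0.08388 CPM in kidney sham KO 4 and 0.1284 CPM in liver sham WT 2, beside 0 in the other libraries of those groups, and each of these values is 2 reads.

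The left-out kidney libraries held several members above every sham kidney library analysed. Sham WT 1 had 20.33 CPM of Cxcl1 (sham libraries analysed 0.3573 to 17.22), 2.624 of Cxcl13 (0 to 0.223) and 29.25 of Cxcl9 (0.3218 to 3.345). UUO WT 1 had 31.83 CPM of Cxcl13, 1.965 of Cxcl2 (sham 0 to 0.1647) and 11.41 of Cxcl9. Summed hepatocyte markers were 280000 CPM in sham WT 1, and summed adipocyte markers were 13900 CPM in UUO WT 1.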

How the results depend on the processing

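Over all settings, no member's change that had been called turned its direction. Of the single member results under the alternatives, 697 of the inhibitor kidney, 745 of the inhibitor liver, 803 of the lung, 790 of the knockout kidney and 818 of the knockout liver stayed on their side of the threshold. In the same order 0, 8, 0, 3 and 7 lost a call and 3, 7, 2, 7 and 15 gained one.

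With DESeq2 the count of members called was 1 for KO against WT in sham kidney and 3 in ligated liver, where edgeR called 0. With median-of-ratios scaling it was 1 for UNC569 against DMSO in sham kidney, where limma called 0. Leaving out 1 library at a time gave 0 to 1 members for the difference of responses in knockout kidney, 0 to 2 for KO against WT in sham kidney, 3 to 7 for ligation in KO liver and 0 to 1 for KO against WT in ligated liver. In the inhibitor tables it gave 0 to 1 for the difference of responses and for UNC569 against DMSO in sham kidney, 1 to 5 for ligation with DMSO, 0 to 2 for ligation with UNC569, 0 to 1 for UNC569 against DMSO in ligated liver, and 0 to 1 for bleomycin with DMSO. The causes of these moves were not tested, and each library is named beside its result.

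Counts over all genes moved more. KO against WT in ligated liver called 360 genes higher and 232 lower, or 1046 and 862 with DESeq2, 208 and 114 with no low-count filter, and 0 with the libraries of noted bad files left out, which kept only BDL KO 2 and 4 of the BDL KO group. In sham kidney DESeq2 called 27 and 288, and for the difference of kidney responses 1104 and 547. Leaving out the libraries of noted bad files kept only sham WT 2 and UUO WT 2 of the WT kidneys analysed, so its counts are not given there. UNC569 against DMSO called 38 and 161 in obstructed kidney, or 7 and 39 with a pseudocount of 0.1, and 16 and 25 in ligated liver, or 4 and 11 with that pseudocount and 1 and 0 with no FPKM filter. That pseudocount raised the log2 change of Cxcl2 in inhibitor kidney to 5.64 with DMSO and 6.32 with UNC569.

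With the replicate number as a replicate block, 6 and 7 members were called for obstruction in WT and KO kidney and 5 and 4 for ligation in liver, and 0 in the other knockout comparisons. Ligated liver then had 154 genes higher and 85 lower for KO against WT. The deviations of same-numbered libraries had correlations of -0.29 to 0.17 over 13 kidney pairs and -0.3 to 0.27 over 16 liver pairs. Of these pairs 3 and 6 were the best of their library. With so few libraries in a group this check cannot exclude a pairing. In lung, a close pair of sham DMSO libraries averaged, and a cardiac muscle covariate, were added after seeing the data, and neither called a member.

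Counts limit Cxcl2 and Cxcl13 in sham kidney, where each arm held few reads, and Cxcl2 in sham liver, with 2 reads in WT and 4 in KO. Cxcl13 was also low in ligated liver, down to 0.252 CPM in BDL WT and 0.0616 in BDL KO. The depth of the FPKM tables is unknown.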
